A study of Mus musculus with 6 samples.

Results

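The genes described here encode the proteins that write, read and erase the repressive methylation marks of histone H3 at lysine 9 (H3K9) and lysine 27 (H3K27), together with the Polycomb complexes that act with them. They were taken by symbol from a list of 49 genes. Of these, 46 were among the 11736 genes measured, and Phf19, Cbx7 and Pcgf5 were not analysed here. RNA was measured in E11.5 gonads of XY (male) mouse embryos of the C57BL/6 strain, around the time at which a gonad becomes testis or ovary. There were 3 libraries labelled Cdyl-Het and 3 labelled Cdyl-KO. All 6 came from embryos of the Nr5a1-hCD271 genotype, in which the gonadal somatic lineage carries the surface marker hCD271, and positive cells were isolated with magnetic beads (MACS). The controls are themselves heterozygous for Cdyl, so a level in wild-type gonads is not analysed here, and neither the labels nor the files say which Cdyl mutation was used. The labels do not say whether libraries came from separate embryos or pools. Every p-value below is thus set against the spread of these samples alone, and that spread may be technical.

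Polycomb repressive complex 2 (PRC2) methylates H3K27 through its catalytic subunit EZH2 or EZH1. Polycomb repressive complex 1 (PRC1) contains a CBX protein that binds methylated H3K27 in its canonical forms, and it attaches ubiquitin to histone H2A. H3K9 methylation is written by enzymes such as SUV39H1 and SETDB1 and is bound by the HP1 proteins. CDYL is a chromodomain protein that binds methylated H3K9 and H3K27 and has been found with the H3K9 methyltransferase EHMT2 and with PRC2. In mice, XY embryos without the PRC1 subunit CBX2 or the H3K9 demethylase KDM3A can develop as females. The comparison asked whether RNA levels of this machinery differ between gonadal cells labelled Cdyl-Het and Cdyl-KO.

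None of the 46 genes passed the threshold in either direction, under limma with p-values adjusted over all 11736 genes and a threshold of 0.05. Across all genes, 7.5% passed, with 4.67% higher and 2.83% lower in Cdyl-KO. At an unadjusted limma p under 0.05, 5 of the genes were higher and 3 were lower, or 8 of 46, against 25.4% of all genes. The Cdyl-KO libraries lay wholly above the Cdyl-Het libraries in 11 genes and wholly below them in 4. Over all genes these shares were 17% and 14.5%. The groups overlapped for the other 31 genes, so 15 of 46 stood apart, against 31.6% of all genes.

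The differences in the list were small. Each difference is the Cdyl-KO minus the Cdyl-Het value on the scale of log2(scaled RPKM + 1), where RPKM is the read number per kilobase of a gene in every 1 M reads and scaled RPKM is that value after division by a factor per library. They ran from -0.26 in Kdm7a to 0.36 in Cbx8, with a median of 0.05, while the median of all genes was -0.00. The median size of the difference, whatever its sign, was 0.08 in these genes and 0.11 over all genes. In 45 of the 46 genes the 95% confidence interval lay within 0.5 on the log2 scale on either side of 0, and Cbx8 was the exception.

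**Figure D1:**
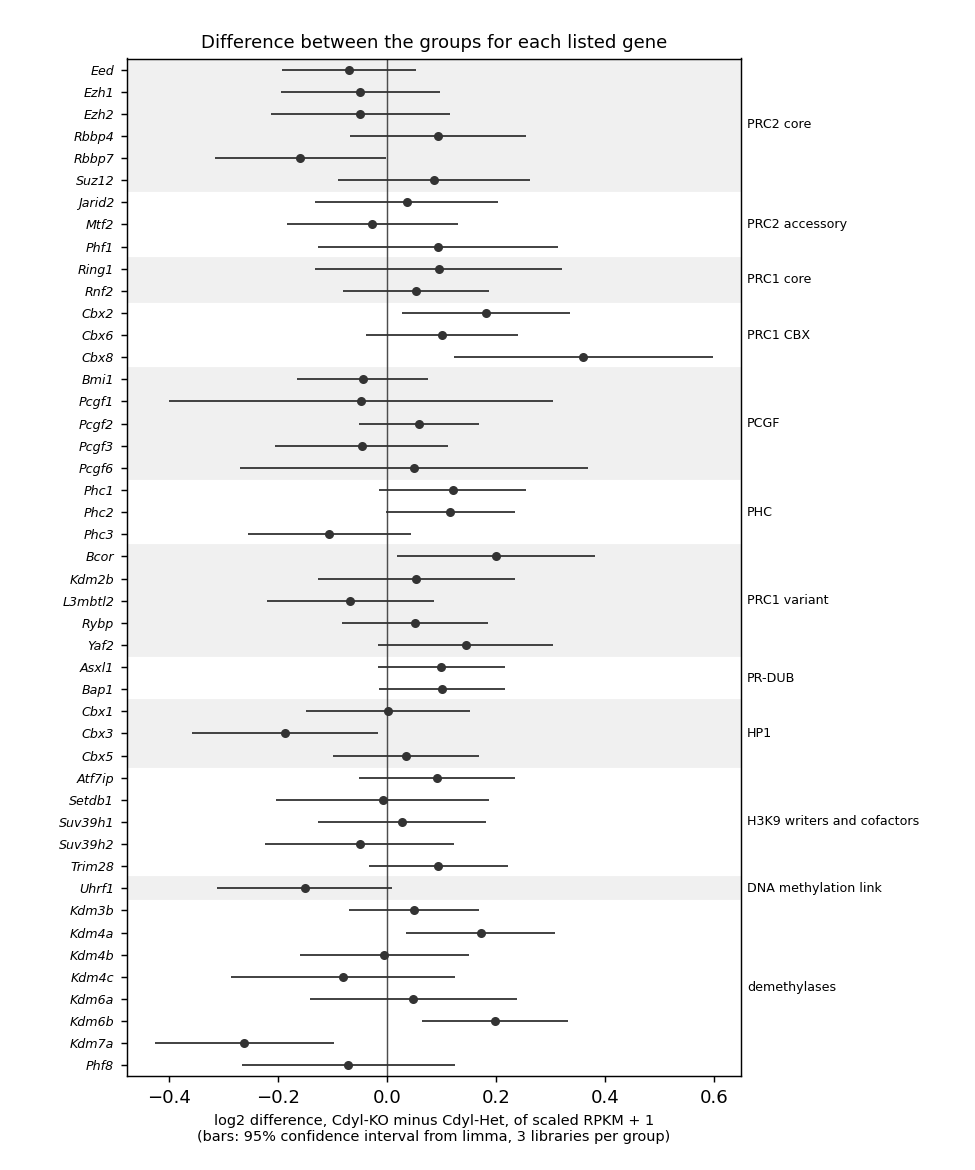
Difference between Cdyl-KO and Cdyl-Het for each of the 46 listed genes, on the log2(scaled RPKM + 1) scale, grouped by role. Points are limma estimates over 3 libraries per group and bars are 95% confidence intervals; Kdm7a is lowest at -0.26 and Cbx8 is highest at 0.36.

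The sorted cells expressed the list across a wide range of levels. Averaged over the groups, the lowest levels were those of Pcgf1 at 3.27, Phc3 at 3.37 and Cbx8 at 3.47 scaled RPKM. The highest were those of Trim28 at 103, Rbbp7 at 90.7 and Cbx5 at 43.2 scaled RPKM. None of the 46 genes was near the lower limit of the tables, in which every gene has a deposited mean of at least 1.005 in at least 1 group. When all genes were ranked by mean level and cut into 4 equal bins, 9 of the 46 genes fell in the second, 14 in the third and 23 in the highest bin, and none in the lowest. Their median log2 differences in these bins were -0.05, 0.05 and 0.05, against -0.03, 0.02 and 0.07 for all genes of the same bins. In the highest bin, 10.7% of all genes passed the threshold. There the Cdyl-KO libraries lay wholly above in 880 and wholly below in 210 of 2934 genes, against 6 and 2 of the 23 listed genes.

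**Figure D2:**
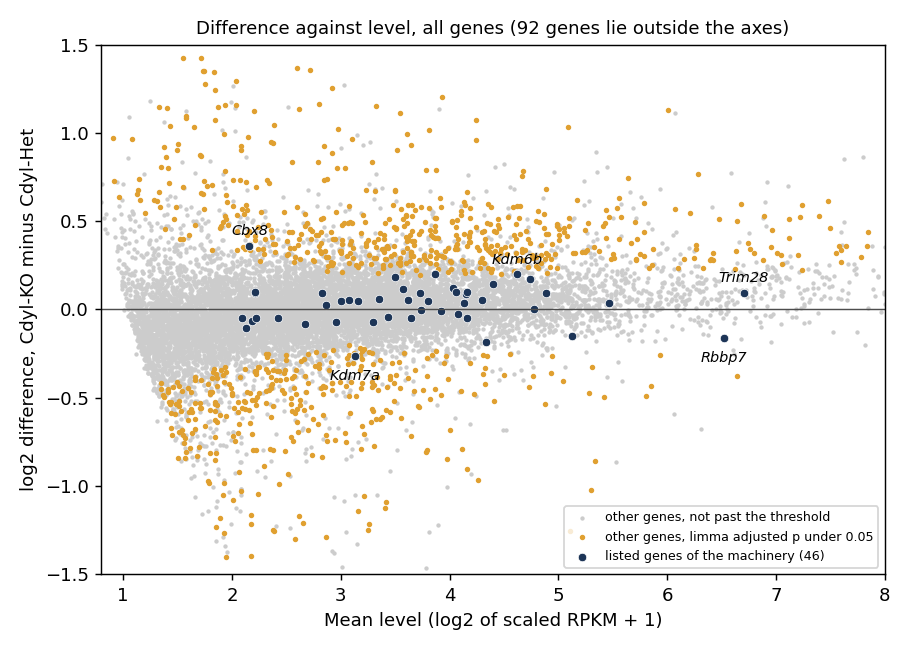
Difference between Cdyl-KO and Cdyl-Het against mean level for all genes, both on the log2 scale of scaled RPKM + 1, with the 46 listed genes of the machinery in dark blue and other genes past the threshold in orange. The dark points lie close to 0 from Cbx8 at low levels to Trim28 and Rbbp7 at high levels, and 92 genes lie outside the axes.

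The libraries were similar in summed values and in correlation, and no measure of RNA quality was at hand. Deposited values summed to between 191953 and 209917 per library, the steps between low values implied 34.6 to 45.2 M reads, and the correlation of log2 values across genes was 0.976 to 0.983 within groups. All 5 markers of the Nr5a1 lineage fixed for the sorted cells (Nr5a1, Gata4, Wt1, Lhx9 and Emx2) were listed, with summed levels of 293.7 to 337.8 scaled RPKM in Cdyl-Het and 320.9 to 359.1 in Cdyl-KO, and Lhx9 and Emx2 were higher in Cdyl-KO. The other 3, Nr5a1, Gata4 and Wt1, differed by -0.14, -0.07 and 0.11 on the log2 scale and did not pass. Of 10 endothelial markers 8 were listed, 4 of them were lower in Cdyl-KO, and the sum was 33.1 to 36.3 against 21.7 to 23.95. The 3 listed of 10 germ cell markers summed to 5.81 to 7.34 against 5.65 to 5.78, the 5 listed of 9 blood markers to 43.0 to 217.5 against 45.5 to 124.5, and the 5 listed of 7 mesonephric markers to 12.0 to 17.7 against 14.3 to 18.3. Of the mesonephric markers Pax8 was higher in Cdyl-KO (log2 difference 0.40, limma adjusted p = 0.0227), and no germ cell or blood marker passed. In such bulk RNA, fewer cells of a type and less RNA per cell cannot be told apart.

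The catalytic subunits of PRC2 were read at nearly equal levels in both groups. Ezh2, the main H3K27 methyltransferase of dividing cells, was at 18.2, 17.6 and 15.6 scaled RPKM in Cdyl-Het and at 17.2, 15.8 and 16.6 in Cdyl-KO. The Cdyl-KO values lay inside the range of the Cdyl-Het values, with a log2 difference of -0.05 (95% interval -0.21 to 0.11, limma adjusted p = 0.705). Ezh1, its paralogue with weaker enzymatic activity, was at 4.40, 4.30 and 4.67 against 4.09, 4.54 and 4.20 (log2 difference -0.05, 95% interval -0.19 to 0.10, limma adjusted p = 0.666). Ezh1 made up 20.7 ± 1.99% of the summed Ezh1 and Ezh2 levels in Cdyl-Het and 20.6 ± 1.59% in Cdyl-KO (SD, n = 3 per group, exact two-sided permutation p = 0.9). The balance between the catalytic subunits thus differed by less than the spread between replicates.

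Eed, the subunit that binds trimethylated H3K27 and stimulates the enzyme, was at 9.07, 9.10 and 8.94 scaled RPKM in Cdyl-Het and at 8.52, 8.98 and 8.21 in Cdyl-KO. Only Cdyl-KO replicate 2 reached the Cdyl-Het range (log2 difference -0.07, 95% interval -0.19 to 0.05, limma adjusted p = 0.456). Suz12, the scaffold of the complex, was at 16.6, 17.5 and 14.5 against 17.8, 17.2 and 16.6. Its low value was Cdyl-Het replicate 3, and the groups overlapped (log2 difference 0.09, 95% interval -0.09 to 0.26, limma adjusted p = 0.516). The accessory subunits Jarid2, Mtf2 and Phf1, which help to bring PRC2 to chromatin, differed by 0.04, -0.03 and 0.09 on the log2 scale. Of the bases in exons of Phf1, 39.3% overlap exons of Cuta on the opposite strand. No label says whether strand was used in the counting, so its reads cannot be assigned with certainty.

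Rbbp4 and Rbbp7 encode histone-binding proteins found in PRC2 and also in other chromatin complexes such as NuRD. Rbbp4 was at 28.9, 28.9 and 25.1 scaled RPKM in Cdyl-Het and at 30.7, 29.4 and 28.5 in Cdyl-KO (log2 difference 0.09, limma adjusted p = 0.446). Rbbp7 went the other way, at 97.4, 100.9 and 89.1 against 90.1, 84.8 and 82.1 (log2 difference -0.16, SE 0.07, 95% interval -0.32 to -0.00, limma adjusted p = 0.190). Each gene alone overlapped between the groups and did not pass the threshold. Under 2 alternatives Rbbp7 did pass: its log2 difference was -0.30 without scaling (limma adjusted p = 0.0298) and -0.30 with quantile normalization (limma adjusted p = 0.0224).

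The ratio of the pair was tighter than either level. Rbbp4 held 22.9, 22.3 and 21.996% of the summed level of the pair in Cdyl-Het, against 25.4, 25.7 and 25.8% in Cdyl-KO. The groups were far apart relative to their spread (22.4 ± 0.442% and 25.6 ± 0.196%, SD, n = 3 per group). A share within a library does not depend on the factor used to scale that library. The exact two-sided permutation p was 0.1, the smallest that 3 against 3 libraries allow. Adjusted over the 26 shares of paralogues computed, this permutation p was 0.289, the same as for every other share whose groups did not overlap. Of the exon bases of Rbbp7, 5.98% overlap Txlng on the opposite strand. For Rbbp4 the overlaps with opposite-strand genes were 8.94% (Sync) and 9.1% (Gm26722).

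In PRC1, the catalytic RING proteins differed little. Rnf2, which carries most of the activity that ubiquitinates histone H2A, was at 18.9, 18.8 and 17.3 scaled RPKM in Cdyl-Het and at 19.6, 19.2 and 18.3 in Cdyl-KO (log2 difference 0.05, limma adjusted p = 0.604). Ring1, its paralogue, was at 3.53, 3.63 and 3.28 against 3.53, 3.39 and 4.49. Cdyl-KO replicate 3 alone was above the Cdyl-Het range (log2 difference 0.09, limma adjusted p = 0.582). Neither gene moved by more than its spread.

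The CBX subunits, which let canonical PRC1 bind trimethylated H3K27, were the role group with the largest median difference, at 0.18 on the log2 scale over 3 genes. None passed the threshold, and in all 3 the Cdyl-KO libraries lay above the Cdyl-Het libraries after scaling. Cbx2, known for the sex reversal of XY mice that lack it, was at 9.95, 9.81 and 8.94 scaled RPKM in Cdyl-Het and at 10.8, 10.4 and 11.7 in Cdyl-KO. The group levels were 9.57 ± 0.551 and 10.99 ± 0.674 (SD, n = 3 per group; log2 difference 0.18, SE 0.07, 95% interval 0.03 to 0.34, limma adjusted p = 0.140). In the fit without scaling, its log2 difference was 0.05 (limma adjusted p = 0.547).

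Cbx8 had the largest difference of the whole list. Its levels were 3.06, 3.06 and 2.61 scaled RPKM in Cdyl-Het against 4.49, 3.39 and 4.22 in Cdyl-KO, and Cdyl-KO replicate 2 was nearest to the controls. The mean went from 2.91 ± 0.257 to 4.03 ± 0.572 (SD, n = 3 per group; log2 difference 0.36, SE 0.10, 95% interval 0.12 to 0.60, limma adjusted p = 0.0782). Without Cdyl-KO replicate 2 it passed the threshold (log2 difference 0.46, limma adjusted p = 0.0490), and over all alternatives its adjusted p ran from 0.0490 to 0.207. Cbx6, with 5.31% of exon bases shared with Npcd on the same strand, was at 3.35, 3.54 and 3.54 against 3.91, 3.82 and 3.68 (log2 difference 0.10, limma adjusted p = 0.335). Without scaling, the log2 difference of Cbx6 was -0.01 (limma adjusted p = 0.889).

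Cbx2 and Cbx8 lie next to each other on mouse chromosome 11 (GENCODE M21 on build mm10). Cbx2 spans 119022962 to 119031270 on the plus strand and Cbx8 spans 119036305 to 119040969 on the minus strand.

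The PCGF proteins define the subtypes of PRC1, and the Polycomb genes Bmi1 and Pcgf2 encode those of its canonical forms. Pcgf2 was at 9.05, 9.08 and 8.77 scaled RPKM in Cdyl-Het and at 9.39, 9.37 and 9.40 in Cdyl-KO. The groups did not overlap, yet the difference was 0.06 on the log2 scale (limma adjusted p = 0.476). Bmi1, Pcgf1, Pcgf3 and Pcgf6 differed by -0.04, -0.05, -0.05 and 0.05, with overlapping groups. Pcgf1 was the least precise of the 46 genes. It ran from 2.68 to 4.28 in Cdyl-Het and from 2.62 to 3.56 in Cdyl-KO, with an SE of 0.15 on the log2 scale.

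The polyhomeotic proteins join canonical PRC1 complexes into larger assemblies. None of their 3 genes passed the threshold, and the signs of their RNA differences were not all the same in the main fit. Phc1 went from 14.6 ± 0.619 to 16.01 ± 0.748 scaled RPKM and Phc2 from 10.4 ± 0.280 to 11.4 ± 0.339 (SD, n = 3 per group). Each differed by 0.12 on the log2 scale (limma adjusted p = 0.242 and 0.205), and the groups stood apart only for Phc2. Phc3, the least abundant, was at 3.64, 3.33 and 3.64 against 3.21, 3.13 and 3.30, wholly lower in Cdyl-KO (log2 difference -0.11, limma adjusted p = 0.347). Without scaling, Phc1, Phc2 and Phc3 differed by -0.02, -0.02 and -0.22, where the median of all genes was -0.12.

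Variant PRC1 complexes lack the CBX subunits of canonical PRC1 and contain RYBP or YAF2 instead. Bcor, a corepressor of the PCGF1 complex, was at 12.8, 13.04 and 11.9 scaled RPKM in Cdyl-Het and at 14.2, 13.5 and 16.3 in Cdyl-KO. The groups did not overlap and Cdyl-KO replicate 3 was highest (log2 difference 0.20, SE 0.08, limma adjusted p = 0.161). Kdm2b, which brings that complex to unmethylated CpG islands, differed by 0.05 on the log2 scale. Rybp and Yaf2 differed by 0.05 and 0.14, and L3mbtl2, a member of the PCGF6 complex, by -0.07. Of the exon bases of L3mbtl2, 17.2% overlap Chadl on the opposite strand.

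The PR-DUB complex removes the ubiquitin that PRC1 attaches to histone H2A. Its deubiquitinase Bap1 was at 15.2, 15.6 and 14.6 scaled RPKM in Cdyl-Het and at 16.3, 15.9 and 16.6 in Cdyl-KO (log2 difference 0.10, SE 0.05, limma adjusted p = 0.254). Asxl1, the subunit that activates it, was at 16.5, 16.7 and 15.7 against 17.8, 17.6 and 17.1 (log2 difference 0.10, SE 0.05, limma adjusted p = 0.263). In both genes all Cdyl-KO values were above all Cdyl-Het values, and the means were 7.70% and 7.54% higher. Without scaling both differences were -0.04 on the log2 scale, where the median of all genes was -0.12.

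**Figure D3:**
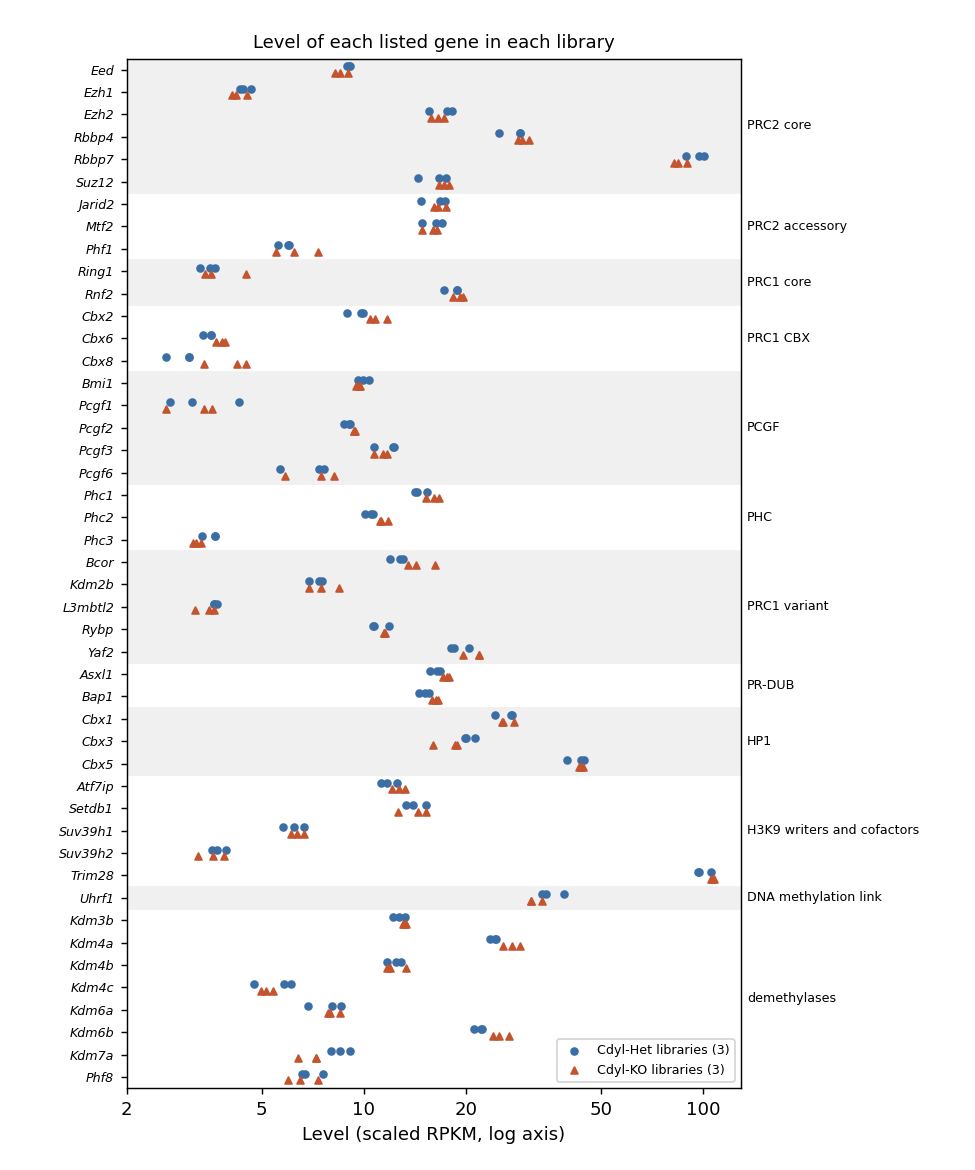
Level of each of the 46 listed genes in each library, in scaled RPKM on a log axis, grouped by role. Circles are the 3 Cdyl-Het and triangles the 3 Cdyl-KO libraries; the groups overlap in 31 genes, all triangles lie to the right of all circles in 11 and to the left in 4.

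The H3K9 methyltransferase genes Setdb1, Suv39h1 and Suv39h2 had overlapping groups. Setdb1, which trimethylates H3K9 at retroelements, was at 13.9, 15.3 and 13.3 scaled RPKM in Cdyl-Het and at 14.5, 12.6 and 15.2 in Cdyl-KO (log2 difference -0.01, 95% interval -0.20 to 0.19, limma adjusted p = 0.966). Suv39h1, which acts at pericentric heterochromatin, was at 6.22, 6.69 and 5.79 against 6.11, 6.34 and 6.66 (log2 difference 0.03, limma adjusted p = 0.829). Its paralogue Suv39h2 was at 3.69, 3.56 and 3.93 against 3.86, 3.60 and 3.25 (log2 difference -0.05, limma adjusted p = 0.712). Of the exon bases of Suv39h1, 14.6% overlap the antisense gene Gm14820.

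Trim28, the corepressor that brings SETDB1 to its targets, was the most abundant gene of the list. It was at 97.1, 105.4 and 97.1 scaled RPKM in Cdyl-Het and at 107.6, 106.1 and 106.2 in Cdyl-KO. The Cdyl-KO values lay just above the highest Cdyl-Het value (log2 difference 0.09, 95% interval -0.03 to 0.22, limma adjusted p = 0.328). Atf7ip, which stabilises SETDB1, also differed by 0.09 with overlapping groups.

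Among the HP1 genes, Cbx1 and Cbx5 differed by 0.00 and 0.04 on the log2 scale. Cbx3, which encodes HP1 gamma, was at 19.98, 21.3 and 19.9 scaled RPKM in Cdyl-Het and at 18.9, 18.6 and 16.1 in Cdyl-KO. All Cdyl-KO values were below the controls and Cdyl-KO replicate 3 was lowest (log2 difference -0.19, SE 0.07, 95% interval -0.36 to -0.02, limma adjusted p = 0.164). It passed the threshold only without scaling (log2 difference -0.32, limma adjusted p = 0.0394). Cbx3 has 8 named pseudogenes in the annotation, so its reads may be split or lost.

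Uhrf1, which reads H3K9 methylation and maintains DNA methylation after replication, was at 33.6, 38.8 and 34.5 scaled RPKM in Cdyl-Het and at 31.2, 31.2 and 33.5 in Cdyl-KO. The highest Cdyl-KO value fell just short of the lowest control (log2 difference -0.15, SE 0.07, 95% interval -0.31 to 0.01, limma adjusted p = 0.221). Without scaling it passed the threshold (log2 difference -0.29, limma adjusted p = 0.0278). UHRF1 is made mainly in dividing cells. The 20 listed proliferation markers summed to 456 to 496 scaled RPKM in Cdyl-Het and to 448 to 459 in Cdyl-KO, with a median log2 difference of -0.10 and none past the threshold. Their part in the Uhrf1 values was not tested.

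Kdm7a, a demethylase of dimethylated H3K9 and H3K27, had the largest difference downward and the smallest adjusted p of the 46 genes. It was at 7.99, 9.09 and 8.52 scaled RPKM in Cdyl-Het and at 7.22, 6.40 and 7.24 in Cdyl-KO. The groups did not overlap, with means of 8.53 ± 0.547 and 6.95 ± 0.481 (SD, n = 3 per group; log2 difference -0.26, SE 0.07, 95% interval -0.43 to -0.10, limma adjusted p = 0.0676). It passed the threshold in 3 of 16 alternatives. These were the fits without scaling (limma adjusted p = 0.0156), with scaling by the median (limma adjusted p = 0.0360) and on genes with a mean of at least 5 (limma adjusted p = 0.0289). Phf8, a paralogue that removes dimethyl H3K9, differed by -0.07 with overlapping groups.

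Kdm6b, an H3K27 demethylase, was at 22.1, 22.4 and 21.1 scaled RPKM in Cdyl-Het and at 24.0, 25.02 and 26.8 in Cdyl-KO. Every Cdyl-KO value was above the controls (log2 difference 0.20, SE 0.06, 95% interval 0.06 to 0.33, limma adjusted p = 0.0829), and it passed in none of 16 alternatives. Kdm6a, its X-linked paralogue, was at 8.04, 8.55 and 6.87 against 7.93, 7.86 and 8.49 (log2 difference 0.05, limma adjusted p = 0.751). Uty, the Y-linked counterpart of Kdm6a, was added after its values had been seen, and was at 5.22 ± 0.375 and 4.76 ± 0.437 (SD, n = 3 per group; log2 difference -0.11, limma adjusted p = 0.417).

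The KDM4 proteins remove trimethyl marks from H3K9. Kdm4a was at 24.5, 24.5 and 23.5 scaled RPKM in Cdyl-Het and at 27.4, 25.7 and 29.0 in Cdyl-KO, with no overlap (log2 difference 0.17, SE 0.06, 95% interval 0.04 to 0.31, limma adjusted p = 0.120). Kdm4b and Kdm4c differed by -0.00 and -0.08, with overlapping groups. Kdm3b, an H3K9 demethylase of the KDM3 family, differed by 0.05, and 24.6% of its exon bases overlap the opposite-strand gene Gm26538.

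Since some paralogues can replace each other in a complex, the share of each in its family was compared as well. Of 22 shares in 10 families, 8 did not overlap between the groups, and each of these had an exact two-sided permutation p of 0.1. By level, the groups stood apart in 31.6% of all genes. Shares within a family are parts of the same sum, so they are not independent of each other. Adjusted over all 26 shares computed, which include 4 under another definition of a family, the smallest p was 0.289, so none passed. The largest shift, ahead of that of Rbbp4, was that of Kdm4a among the KDM4 genes, from 57.5 ± 1.16% to 60.98 ± 0.668% (SD, n = 3 per group). Kdm4b went from 29.4 ± 0.412% to 27.5 ± 1.02%. Cbx8 went from 18.2 ± 0.782% to 21.4 ± 2.08% of the summed Cbx2, Cbx6 and Cbx8 levels. Among the HP1 genes, Cbx3 went from 22.8 ± 0.857% to 20.3 ± 1.22% and Cbx5 from 47.7 ± 0.309% to 49.7 ± 1.13%. Phc3 went from 12.4 ± 0.411% to 10.5 ± 0.0995% of the PHC genes and Pcgf2 from 21.9 ± 0.454% to 23.1 ± 0.714% of the PCGF genes. Suv39h1 and Kdm6a overlapped, with means of 62.6% against 64.1% and of 26.3% against 24.3%.

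**Figure D4:**
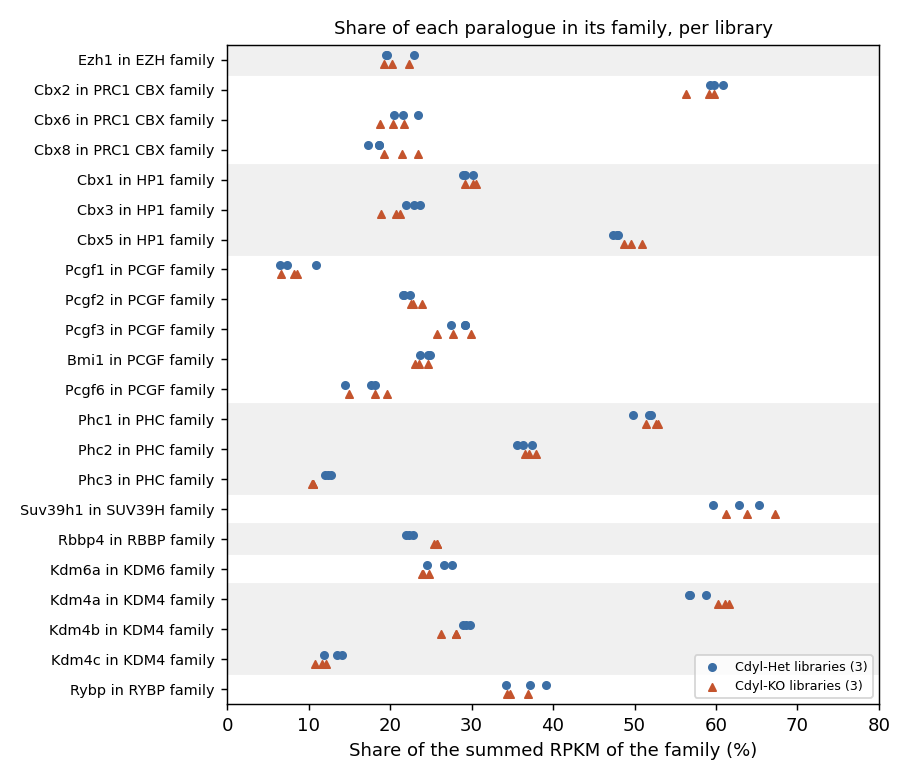
Share of each paralogue in the summed RPKM of its family in each library, in %, for 22 shares. Circles are the 3 Cdyl-Het and triangles the 3 Cdyl-KO libraries; the groups of Rbbp4, at 21.996 to 22.9% and 25.4 to 25.8%, are among the 8 that do not overlap.

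Cdyl-Het replicate 3 bore on the direction of the list. It was the lowest Cdyl-Het library in 32 of the 46 genes (69.6%), against 36.9% of all genes. The median log2 level of the 46 genes was 3.69, 3.74 and 3.58 in Cdyl-Het replicates 1 to 3, against 3.67, 3.67 and 3.69 in Cdyl-KO. Without that library the median log2 difference of the list was 0.00, and 7 genes changed sign. Other choices had a similar effect. With quantile normalization of all 6 libraries the median was -0.001, and 7 genes changed sign. Without Cdyl-KO replicate 3 the median was 0.01, and 6 genes changed sign. Without scaling the median of the list was -0.086, where the median of all genes was -0.12. In that fit 22 of the 46 genes changed sign, and 6 were higher in Cdyl-KO, against 28 in the main fit. The scaling factors were 1.046 to 1.062 in Cdyl-Het and 0.928 to 0.969 in Cdyl-KO. Among genes wholly higher in Cdyl-KO after scaling, Cbx8, Kdm6b, Kdm4a and Bcor had log2 differences of 0.25, 0.06, 0.03 and 0.06 without scaling. Those of Trim28 and Pcgf2 were then -0.05 and -0.07. Whether the groups of a gene stood apart was judged on scaled values. On the X chromosome, Rbbp7, Bcor, Suv39h1, Kdm6a and Phf8 had a median log2 difference of 0.03.

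A wider list of genes of the same pathways gave 2 higher and 0 lower of 54 listed, or 3.7% against 7.5% of all genes, with a median log2 difference of 0.02. Both higher genes act on H3K9. Kdm3a, the demethylase of mono- and dimethylated H3K9 that is needed for Sry expression in mice, was at 27.4, 26.96 and 24.1 scaled RPKM in Cdyl-Het and at 37.5, 33.9 and 37.0 in Cdyl-KO. It rose by 0.45 on the log2 scale (SE 0.07, limma adjusted p = 0.0139) and passed in 14 of 16 alternatives. The exceptions were the fit without Cdyl-KO replicate 1 (limma adjusted p = 0.0532) and the fit with a replicate block (limma adjusted p = 0.0519). Ehmt2, the H3K9 mono- and dimethyltransferase G9a, was at 25.8, 25.9 and 23.8 against 30.6, 29.6 and 30.8. It rose by 0.26 (SE 0.05, limma adjusted p = 0.0322), but passed in only 7 of 16 alternatives, with adjusted p from 0.0209 to 0.117. It did not pass when any 1 of the 6 libraries was left out (limma adjusted p from 0.0659 to 0.103). The other 14 listed H3K9 genes, all 4 listed PRC2 genes, 19 PRC1 genes, 9 PR-DUB genes and 4 DNA methylation genes did not pass.

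Cdyl itself was at 7.77, 8.06 and 8.22 scaled RPKM in Cdyl-Het and at 6.77, 6.93 and 7.07 in Cdyl-KO. The groups did not overlap (log2 difference -0.19, SE 0.05, limma adjusted p = 0.0702). As the altered part of the gene is not known here, reads from the rest of it do not check the labels. Its paralogue Cdyl2 differed by -0.01 (limma adjusted p = 0.963).

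Hox genes are classical targets of Polycomb repression, and 24 of them were listed. None passed the threshold. Their groups stood apart in 8 genes, 3 higher and 5 lower in Cdyl-KO, or 8 of 24, near the 31.6% of all genes whose groups stood apart. The median log2 difference was -0.09. The range was from -0.40 in Hoxb9 (limma adjusted p = 0.0616) to 0.20. Since genes low in both groups are not in the tables, Hox genes at background level are not analysed here.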

How the data were processed

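Per the labels' protocols, hCD271-positive gonadal cells were isolated by MACS, RNA was extracted with Direct-zol and libraries were made with the SMARTer Stranded Total RNA-Seq Pico v2 kit. The tools were STAR and featureCounts 1.6.4 (Subread) with mm10, per the submitters' processing notes, which as used here give no annotation, strand setting, gene filter or step from counts to values. The authors deposited 1 value per gene and library without a stated unit, taken here as RPKM because the values were not whole and had no fixed sum. Depth is implied by steps between low values (68.3 to 72.3% whole within 0.02). Of the whole values 64.4 to 71.8% were even, so the size of a step and the implied depth are uncertain.

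Values were divided by a trimmed mean of log ratios against the first Cdyl-Het library (30% of ratios and 5% of levels trimmed). The log2 of scaled RPKM + 1 was fitted with limma 3.58.1 in R 4.3.3, with group alone in the model and a trend of the spread with level. Benjamini-Hochberg adjustment ran over 11736 genes, with a threshold of 0.05. Positions and exon overlaps come from GENCODE M21. Shares were compared by exact permutation. The script was tested on simulated data. Per-library values are given for core subunits, Cbx2 and Uhrf1 by a fixed rule. Those of other genes were chosen after their values were seen, for groups that did not overlap or a difference among the largest. The members and lists were chosen with earlier results of these data known. Results on 1 other gene are not reported here.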

Additional observations from a re-analysis of the deposited data

How the results depend on the processing

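The count of 0 higher and 0 lower among the 46 genes was the same with a pseudocount of 0.1 or 5, without a trend in the spread, with library weights and, chosen after seeing the data, with scaling against Cdyl-KO replicate 1. The number lower was 4 without scaling (Rbbp7, Cbx3, Kdm7a and Uhrf1), where the median of all genes shifted to -0.12, that of the list to -0.086 and all genes past the threshold numbered 1863. It was 1 with scaling by the median (Kdm7a), 1 with quantile normalization (Rbbp7) and 1 on genes with a mean of at least 5 (Kdm7a). Leaving out each library in turn gave 0 to 1 higher (Cbx8) and 0 lower, a median log2 difference of 0.00 to 0.07 and 253 (without Cdyl-Het replicate 3) to 647 (without Cdyl-Het replicate 1) genes past the threshold in all, against 880. That number was 281 without Cdyl-Het replicate 2, and 304, 410 and 449 without Cdyl-KO replicates 1, 2 and 3. Deviations of libraries with the same number correlated at -0.05, -0.27 and -0.05, and those with different numbers at -0.14 to 0.22. With 3 libraries per group, these values cannot show whether the numbers pair the libraries. With a replicate block, 337 genes passed, with 0 of the 46 genes among them.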
